A study of Mus musculus with 16 samples.

Results

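The comparison described here set 4 arrays labelled Tgif1 OE against 4 arrays labelled BirA control, 8 of the 16 arrays of the series. Its members were chosen by the array titles alone, and every probe set that carries exactly 1 gene symbol was read, 20380 of 22690 in all, representing 12393 genes. The cells of both groups are J1, a mouse embryonic stem (ES) cell line, kept on 0.1% gelatin in medium with 20% serum and 1000 U/ml of LIF, the cytokine that supports ES cell self-renewal. The control arrays come from cells whose genotype is given as BirA OE; BirA is the biotin ligase of Escherichia coli, used to put a biotin tag on proteins. The arrays labelled Tgif1 OE are described as cells overexpressing Tgif1, without a statement on whether BirA is also present, on the promoter or vector, or on whether a line is 1 clone. Replicates carry the numbers 1 to 4, and nothing says whether they came from separate cultures, so p-values measure the spread between these arrays, which may be technical. Total RNA was labelled and hybridised to Affymetrix Mouse 430A 2.0 arrays, and all values below are log2 signals after RMA, an array normalisation that summarises the probes of each probe set. A change is the mean of the 4 arrays labelled Tgif1 OE minus the mean of the 4 BirA control arrays on that scale, and a value after ± is its standard error from the model unless an SD is named.

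Tgif1 encodes a homeodomain protein of the TALE class that represses transcription. It binds Smad2 and Smad3, the transducers of Nodal, activin and TGF-beta signals, and brings histone deacetylases and CtBP to their targets; it can also bind DNA directly and oppose retinoic acid receptors. Nodal and activin signals, LIF, BMP and Wnt all act on the balance between self-renewal and differentiation in ES cells. Tgif2 is a close relative with overlapping functions.

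The Tgif1 probe set gave 10.25, 10.14, 10.06 and 10.02 on the arrays labelled Tgif1 OE and 10.65, 10.67, 10.70 and 10.74 on BirA control. All 4 of the former lay below all 4 of the latter, a change of -0.58 ± 0.07 (limma, adjusted p = 5.52e-05), or 67.1% of the control signal. It was -0.47 within replicates 1 and 2 and -0.68 within replicates 3 and 4. The Tgif1 signal on these arrays therefore goes against their label. Whether this probe set can detect RNA of an introduced Tgif1 is not given in the sources used here, and the arrays are called by their label throughout. The Tgif2 probe set was also lower, at 8.88, 8.91, 8.77 and 8.69 against 9.35, 9.28, 9.24 and 9.17, a change of -0.45 ± 0.07 (adjusted p = 1.86e-04). Among 14 measured TALE homeobox genes, 5 rose and 3 fell, with 2 and 2 in both of the fits described next; the rises included the Iroquois genes Irx3 (1.01 ± 0.12) and Irx5 (0.62 ± 0.10) in both fits and Irx4 (0.49 ± 0.12) and Irx1 (0.30 ± 0.07) in the first fit only, and the falls included Tgif1 and Tgif2.

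In a limma fit over all 16 arrays with Benjamini-Hochberg adjustment over 12393 genes, 1408 genes rose (11.4%) and 1179 fell (9.51%) at an adjusted p under 0.05, together 20.9% of the genes. These shares are the background against which the lists below are read. In both groups, arrays of the same pair of replicates (1 and 2, or 3 and 4) resembled each other more than arrays of different pairs. The SD over genes of the difference between 2 arrays of a group was 0.12 to 0.18 within a pair and 0.25 to 0.27 across pairs. The labels do not say what sets the pairs apart. A second fit therefore treated the arrays of a group and pair as correlated (estimated correlation 0.57). It called 691 rises (5.58%) and 500 falls (4.03%), 9.61% of genes, all of them among the first set. That fit, like the pair means below, treats the shift of a pair as separate in each group. Yet deviations of arrays correlated between the groups at 0.32 to 0.40 within a pair, and at -0.40 to -0.32 across pairs. With the pair as a fixed block over the overexpression arrays, 2078 genes rose and 1800 fell. Allowing for the pairs thus gave fewer or more calls, depending on the block. In 688 of the 691 rises and 499 of the 500 falls of the second fit, the arrays of the groups did not overlap. These are 5.55% and 4.03% of all genes tested, 9.58% together, and include nearly every gene that fit called. Among all genes, whatever their call, 23.1% had no overlap. Below, rose and fell refer to the first fit, and a gene called in both fits passed the second as well. A block of the replicate number, as a further fit, is given where it changed the call of a gene named here, and for some lists. With the mean of each pair as 1 sample, 2 against 2, 104 genes were called, 13 of the 30 leading genes described next among them. A total of 155 rises and 54 falls were at least 2-fold, and 154 and 52 of these were called in both fits.

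The pairs of replicates use different arrays of both groups, so each can be looked up in the other. Replicates 1 and 2 alone called 1915 genes, of which 1784 (93.2%) changed in the same direction in replicates 3 and 4 and 1262 (65.9%) were called there too. Replicates 3 and 4 alone called 2750 genes, and those 1262 were 45.9% of them. Across all genes the changes in the pairs correlated with r = 0.76 and rho = 0.59, a description over 12393 genes that share arrays and normalisation. Of the 2587 genes called over all 4 replicates, 1 had opposite signs in the pairs, Tle3, a Groucho-type corepressor picked out after its values were seen (0.0016 and -0.47); it lost its call (adjusted p = 0.055 to 0.14 without BirA control replicates 3 or 4 or Tgif1 OE replicates 1, 3 or 4; with the replicate number as a block its adjusted p was 0.0875). Calls over all 4 replicates use both pairs and so favour genes of equal sign. That count therefore does not measure how well the pairs agree.

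**Figure D1:**
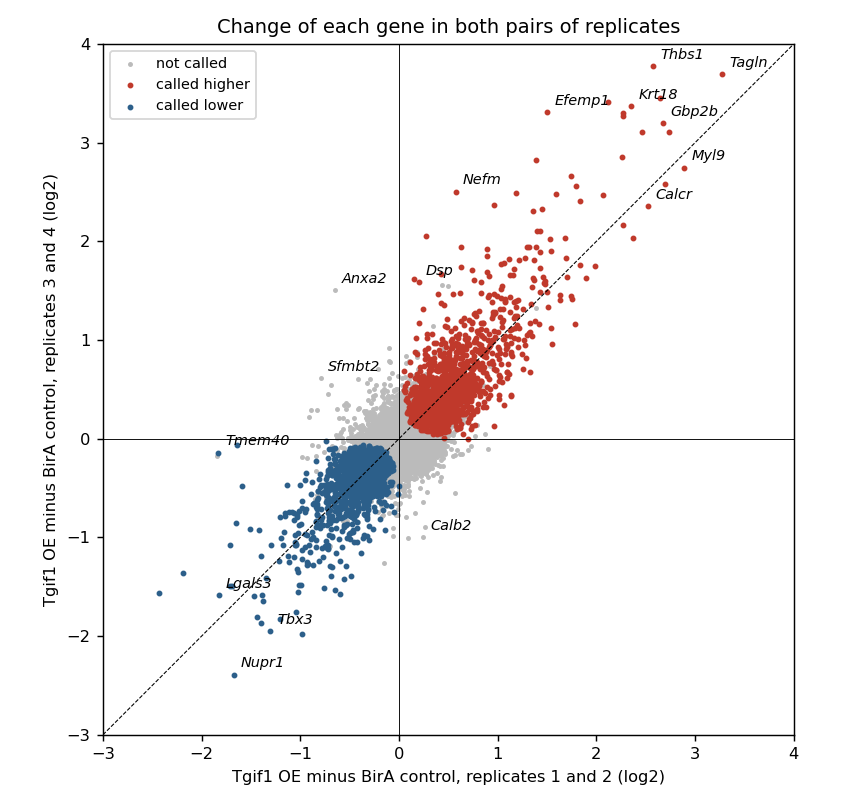
Change of each of the 12393 genes between arrays labelled Tgif1 OE and BirA control (log2), in replicates 1 and 2 on the x axis and in replicates 3 and 4 on the y axis; red and blue points are genes called higher and lower over all 4 replicates, grey points were not called, and the dashed line marks equal change. Tagln lies near the line at 3.27 and 3.69, Efemp1 lies above it at 1.50 and 3.31, and Anxa2 falls in the upper left at -0.65 and 1.51.

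The 15 largest rises among genes called in both fits, with no overlap between the groups, were led by Tagln. It encodes the actin-binding protein transgelin and gave 10.03, 10.15, 10.91 and 10.90 on the arrays labelled Tgif1 OE and 6.65, 6.98, 7.35 and 7.08 on BirA control, a rise of 3.48 ± 0.36 (11.2-fold; adjusted p = 1.14e-05, 4.32e-05 in the second fit). Its lowest array in the first group stood above its highest in the second by more than the range of either. Thbs1, the secreted matrix protein thrombospondin 1, rose by 3.18 ± 0.38, and Myl9, a regulatory myosin light chain, by 2.82 ± 0.29. Krt18 and Krt8, the paired keratins of simple epithelia, rose by 2.86 ± 0.40 and 2.78 ± 0.36. Krt18 gave 9.82, 9.87, 11.17 and 11.10 against 7.49, 7.50, 7.85 and 7.68, so that its arrays 3 and 4 of the first group were the highest. Gbp2b and Gbp2, interferon-inducible guanylate-binding proteins, rose by 2.94 ± 0.29 and 2.92 ± 0.32. Ltb, the lymphotoxin beta subunit of the TNF family, rose by 3.05 ± 0.50; Anxa3, a calcium-dependent membrane-binding annexin, by 2.78 ± 0.44; Phldb2, a regulator of microtubule anchoring at the cell cortex, by 2.77 ± 0.48; and Prss23, a secreted serine protease, by 2.77 ± 0.43. Igfbp3, a secreted binding protein of insulin-like growth factors, gave 9.57, 9.52, 10.10 and 10.14 against 7.30, 7.27, 7.27 and 7.26; its control arrays spanned little, and the rise was 2.56 ± 0.21. Ms4a4d, a gene of the membrane-spanning 4A family, rose by 2.63 ± 0.21, Calcr, the calcitonin receptor, by 2.44 ± 0.23, and Efemp1, an extracellular matrix fibulin, by 2.40 ± 0.46. In 12 of these 15 genes the rise was larger in replicates 3 and 4 than in replicates 1 and 2. All 15 stayed called when any 1 of the 8 arrays was left out, which their choice on these same arrays favours. The other Thbs1 probe set rose by 1.26. Some of these genes were dim on BirA control, with means of 3.35 for Prss23, 3.69 for Efemp1 and 4.32 for Calcr. Thbs1 and Ms4a4d stood at 4.42 and 4.86. The median over all genes was 6.89 there, and the lowest value on the 8 arrays was 2.37.

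The 15 largest falls were smaller. Nupr1, a small stress-induced nuclear protein, gave 5.92, 5.74, 5.31 and 5.38 against 7.57, 7.44, 7.68 and 7.79, a fall with a change of -2.03 ± 0.18 (adjusted p = 3.13e-06, 2.40e-05 in the second fit). Lgals3, the beta-galactoside-binding lectin galectin 3, gave 8.38, 8.32, 8.39 and 8.33 against 10.19, 10.16, 9.92 and 9.96. The spread within each of its groups was a small part of the gap, and the change was -1.70 ± 0.08. The T-box factor Tbx3 (-1.63 ± 0.33) and the Akt co-activator Tcl1 (-1.62 ± 0.15), both part of the ES cell network, were in this set, and so was the secreted ligand Bmp4 (-1.53 ± 0.13). Bmp4 gave 7.38, 7.27, 7.67 and 7.70 against 8.79, 8.79, 9.34 and 9.22. Others were the microtubule-associated protein gene Mapt (-1.63 ± 0.10), the mitochondrial acetyl-CoA synthetase gene Acss1 (-1.51 ± 0.12), the connexin gene Gjb5 (-1.51 ± 0.14), and the drug-efflux transporter gene Abcb1a (-1.59 ± 0.15). The protease inhibitor gene Serpinb1a (-1.48), the basic helix-loop-helix gene Msc (-1.48), the germ cell determinant Prdm1 (-1.40), Timm8a2 (-1.78) and the unnamed transcripts 2210409E12Rik (-1.998) and 1700029P11Rik (-1.60) completed it. In 10 of the 15 the fall was larger in replicates 3 and 4. All 15 stayed called when any 1 array was left out, which their choice on these same arrays favours as well. The other probe sets of Acss1 changed by -0.30 and -0.0058 and those of Mapt by -0.92 and -0.18; the first of each was called in a fit over probe sets and the second was not. The second probe set of Tbx3 was at -0.15 without a call, and that of Serpinb1a was called at -0.26.

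**Figure D2:**
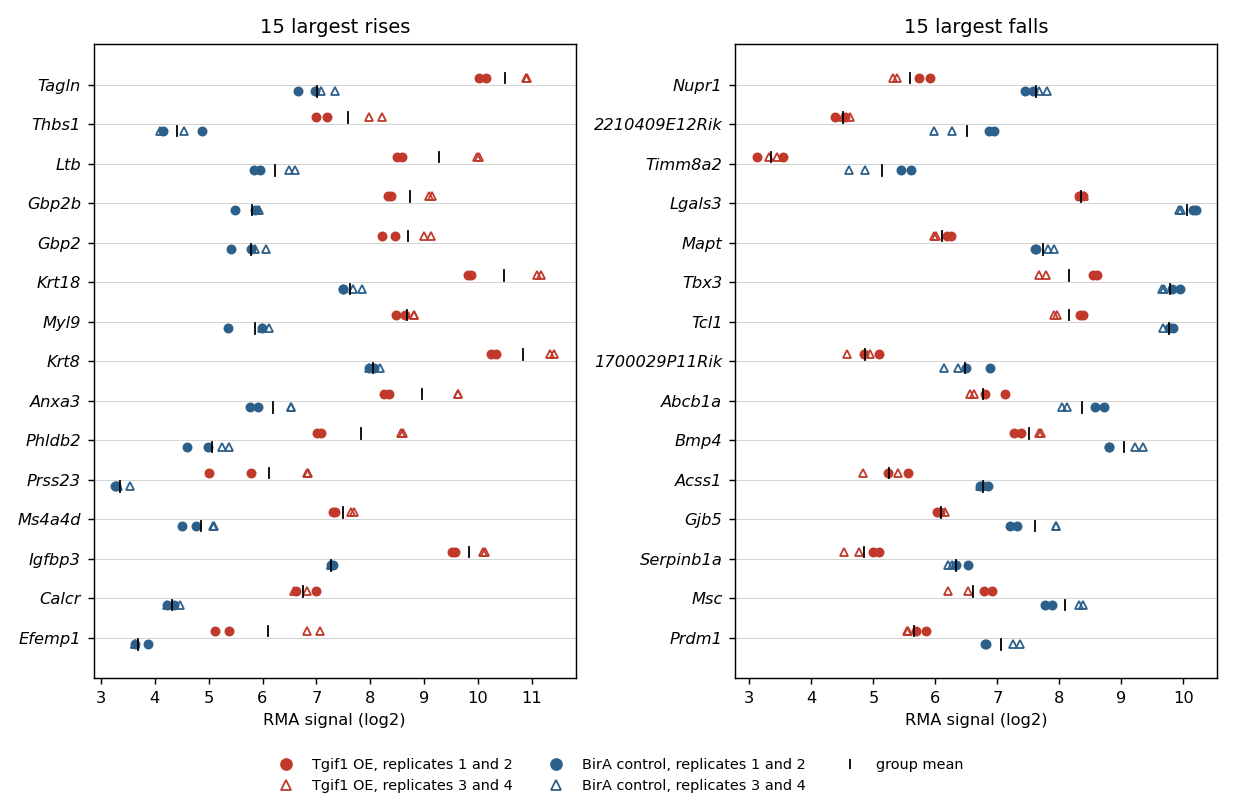
RMA signal (log2) of the 15 largest rises (left) and the 15 largest falls (right) on each of the 8 arrays; red marks are arrays labelled Tgif1 OE, blue marks BirA control, filled circles replicates 1 and 2, open triangles replicates 3 and 4, and black ticks the group means. The groups do not overlap in any of the 30 genes, which the choice of genes required.

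Genes of the actin cytoskeleton, many of them known targets of serum response factor (SRF) and its actin-sensing coactivators, rose as a broad group. Of 33 measured, 20 rose and 1 fell (17 and 1 in both fits), with a median change of 0.54 against 0.01 over all genes. Beside Tagln and Myl9, these included the calponin genes Cnn1 (2.04 ± 0.22) and Cnn2 (1.21 ± 0.11), the smooth muscle and skeletal actins Acta2 (1.75 ± 0.31) and Acta1 (1.29 ± 0.25), caldesmon Cald1 (1.62 ± 0.32), and the tropomyosins Tpm1 (1.51 ± 0.20), Tpm2 (1.03) and Tpm4 (0.76). Focal adhesion genes were among them, with Vcl at 0.82 ± 0.08, Zyx at 0.99 ± 0.14, Pdlim7 at 1.18 ± 0.09 and Fhl2 at 0.70 ± 0.13. Srf itself rose by 0.54 ± 0.10. Myl9 gave 8.64, 8.48, 8.81 and 8.81 against 5.36, 5.98, 6.12 and 5.99, with the arrays of the first group within 0.32 of each other. Csrp2, a LIM protein, fell (-0.30 ± 0.05). Other actin and adhesion genes did not pass the test on their brightest probe sets: Actn1 was at -0.02, Actn4 at 0.04, Tln1 at 0.11 and Myh9 at 0.23. Other probe sets of Tln1 (0.23) and Myh9 (0.25) were called, and with the replicate number as a block Myh9 was called on the first as well (adjusted p = 0.0323). The fit over probe sets did not call other ones of Acta2 (0.01), Tpm2 (0.22), Vcl (0.13), Zyx (0.28) and Srf (0.21).

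The CArG box, CC and GG with 6 bases of A or T between them, is the DNA motif to which SRF binds. In RefSeq promoters of build GRCm38.p6, taken from 250 bases before to 50 after each gene's start, it was found on either strand in 10 of the 30 list genes with a promoter, in 8 of the 19 that rose, and in 1.75% of the 9887 genes of the array with a promoter (1.63% of all promoters in the table). The stretches below hold it in capitals and are shown for members named above, read 5′ to 3′ on the gene's strand and ending before the start. A match is a match of letters only, and binding was not measured here.
Myl9, chr2:156775273-156775342, plus strand: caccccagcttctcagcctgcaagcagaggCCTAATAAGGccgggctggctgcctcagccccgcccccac
Cnn2, chr10:79988514-79988583, plus strand: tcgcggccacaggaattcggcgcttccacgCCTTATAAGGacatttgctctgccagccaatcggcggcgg
Vcl, chr14:20929148-20929210, plus strand: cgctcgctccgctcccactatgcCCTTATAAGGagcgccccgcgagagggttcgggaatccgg
Fhl2, chr1:43163962-43164022, minus strand: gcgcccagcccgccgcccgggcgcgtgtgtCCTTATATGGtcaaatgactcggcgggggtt
Srf, chr17:46556205-46556274, minus strand: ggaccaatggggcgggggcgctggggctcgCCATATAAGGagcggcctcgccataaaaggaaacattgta
The box starts 161 bases before the start of Myl9, 56 before that of Cnn2, 31 before that of Fhl2, 227 before that of Vcl and 82 before that of Srf.

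Targets of the Hippo pathway, whose coactivators Yap and Taz act through Tead factors, overlap with the actin genes in their known regulation. Of 21 measured, 12 rose and 1 fell (10 and 1 in both fits; median 0.40). The matricellular genes Ccn1 (2.21 ± 0.10) and Ccn2 (1.67 ± 0.16) gave large rises, and Ccn1 went from 6.74, 6.97, 6.87 and 6.89 on BirA control to 9.06, 9.18, 9.02 and 9.06. Crim1 (0.88), Ptpn14 (0.94), Amotl2 (0.84) and Axl (0.72) rose, while Yap1 (0.10 ± 0.11), Lats2 (0.10) and Tead4 (-0.17) did not pass. A second Lats2 probe set rose (0.40) and a second one of Tead4 fell (-0.52). Myof fell (-0.91 ± 0.13). Immediate early and AP-1 genes gave 9 rises and 3 falls of 22, and 6 and 1 both in the second fit and without BirA control replicate 2. Jun, an AP-1 subunit, rose by 1.66 ± 0.22, Ier5 by 1.00, Atf3 by 0.78, Klf6 by 0.68, Maff by 0.64 and Jund by 0.62; Fos was at -0.34 ± 0.16 without a call (adjusted p = 0.025 with the replicate number as a block), and Egr1 fell (-0.35 ± 0.07). Not called were other probe sets of Axl (-0.07), Myof (0.07) and Ier5 (0.17 and 0.15).

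Of 34 extracellular matrix genes, 12 rose and 4 fell (7 and 4 in both fits). Beside Thbs1, Ccn1 and Ccn2, which are also Hippo targets, the collagen gene Col5a2 (1.09 ± 0.25), the protease inhibitors Timp3 (0.84) and Timp2 (0.79) and Sparc (0.37) rose in both fits. The falls were basement membrane genes and 1 inhibitor: Lama1, the laminin alpha chain of early embryos (-1.01 ± 0.06), the nidogens Nid1 (-0.84 ± 0.11) and Nid2 (-0.38 ± 0.08), and Timp1 (-0.57 ± 0.06). Lama1 gave 6.95, 6.78, 6.90 and 6.90 against 7.80, 8.03, 7.91 and 7.84. Of 13 integrin genes, 3 rose, led by Itga3 (1.08 ± 0.13) and Itgav (0.56 ± 0.08), and 2 fell, with 2 and 0 in both fits. Among annexins, galectins and S100 genes 6 of 18 rose and 5 fell (5 and 4 in both fits). The rises included Anxa3, Anxa1 (1.21 ± 0.28), the S100 gene S100a6 (1.05 ± 0.15), galectin 1 (Lgals1, 0.83 ± 0.10) and Anxa4 (0.45) in both fits, and the falls included the galectins Lgals3, Lgals8 (-0.76 ± 0.10) and Lgals9 (-0.55 ± 0.14). Other probe sets without a call were those of Timp3 (0.15), Timp2 (0.27, -0.0063 and 0.07), Itga3 (0.19), Itgav (-0.08) and Anxa4 (0.23).

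Epithelial genes changed in both directions, with more rises. Of 9 keratins, 5 rose and 1 fell (4 and 1 in both fits): Krt19 rose by 2.20 ± 0.47 beside Krt8 and Krt18 and Krt7 by 0.85 ± 0.14, and Krt17 fell (-0.93 ± 0.11). Of 21 cell junction genes, 12 rose and 3 fell (11 and 2 in both fits; median 0.33). The tight junction genes Cldn7 (1.67 ± 0.14), Ocln (1.39 ± 0.13) and Cldn6 (1.28 ± 0.15), the desmosomal genes Dsc2 (1.29 ± 0.27) and Pkp2 (0.52), and Perp (1.59 ± 0.26), which is also a p53 target, were among the rises. Epcam (0.47) and E-cadherin (Cdh1, 0.42 ± 0.06) rose as well. Gjb5, Tjp3 (-0.46) and Pkp3 (-0.35) fell. In the list of cadherins and genes of the epithelial-mesenchymal transition, 4 of 18 rose and 3 fell (4 and 2 in both fits). The rises joined Cdh1 and the epithelial splicing factor Esrp1 (0.59 ± 0.10) with N-cadherin (Cdh2, 1.29 ± 0.13) and the hyaluronan receptor Cd44 (1.13 ± 0.21). The falls included the mesenchymal factor Zeb1 (-1.10 ± 0.11) and the adhesion gene Ncam1 (-0.68 ± 0.06). Snai1 (0.08), Snai2 (-0.04) and Twist1 (-0.09) did not pass. The fit over probe sets did not call other ones of Krt17 (-0.03), Dsc2 (0.26), Pkp2 (0.08 and 0.05), Pkp3 (-0.16), Cd44 (-0.06), Zeb1 (0.11) and Ncam1 (0.03, -0.12 and -0.25).

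**Figure D3:**
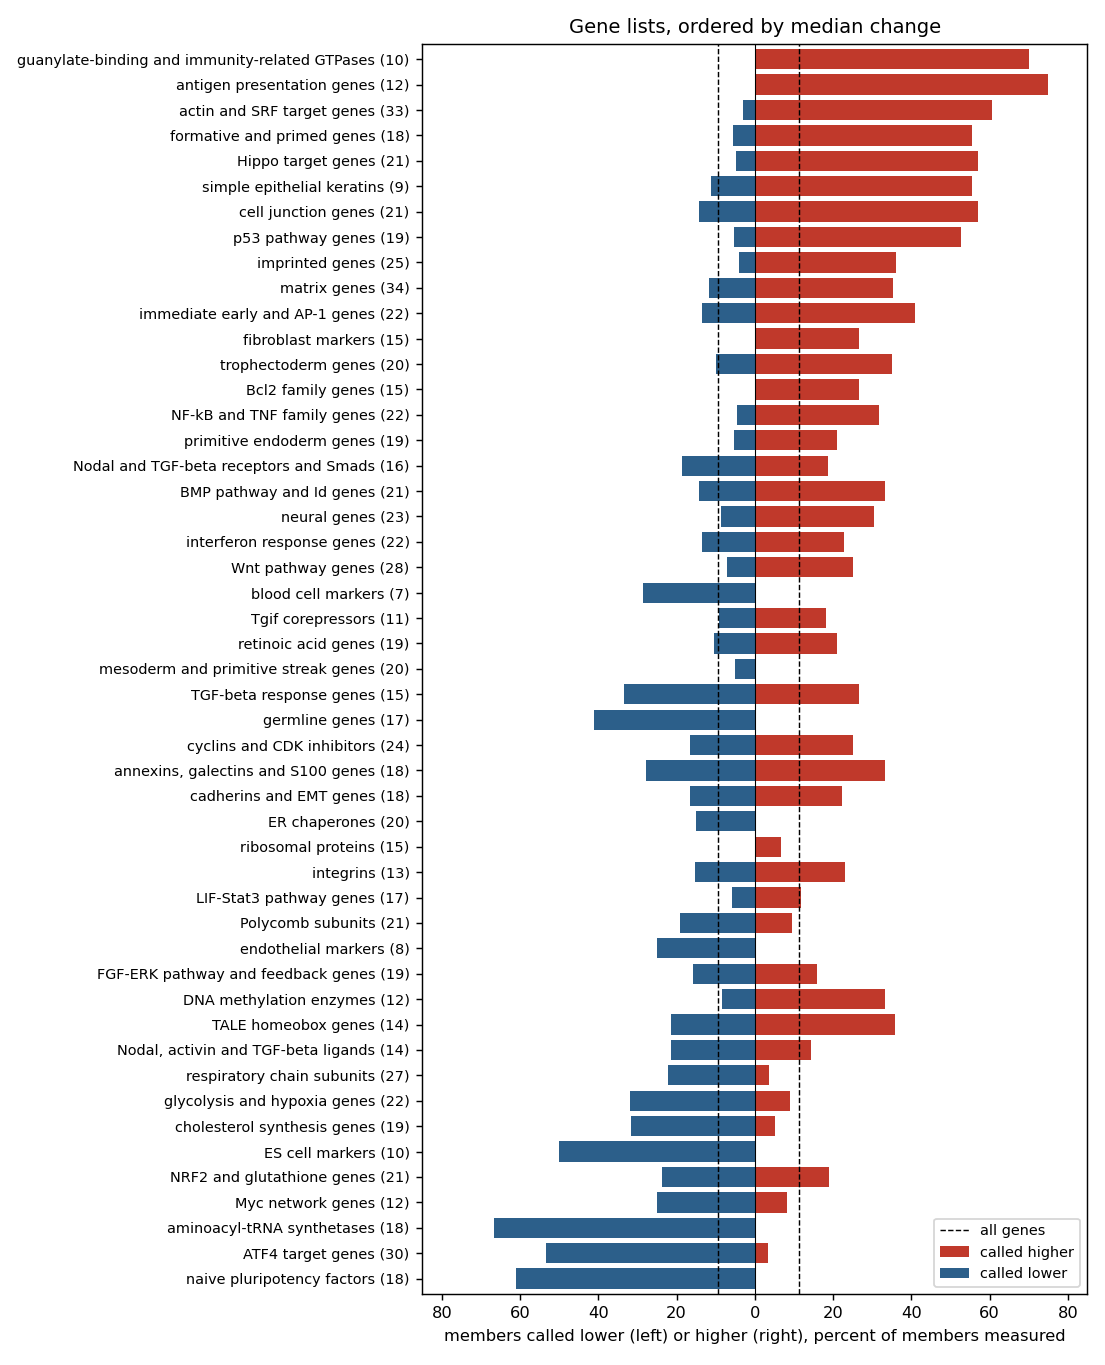
Percent of the measured members of 49 gene lists that were called higher (red, right) or lower (blue, left) on arrays labelled Tgif1 OE, ordered by the list's median change, with the number measured in parentheses; dashed lines mark the shares over all genes. The GTPases, antigen presentation and actin lists lie at the top with 7 of 10, 9 of 12 and 21 of 33 members called, and the naive pluripotency, ATF4 and aminoacyl-tRNA synthetase lists at the bottom with 11 of 18, 17 of 30 and 12 of 18.

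Guanylate-binding proteins (Gbp) and immunity-related GTPases are made by cells exposed to interferon gamma and attack the vacuoles of intracellular pathogens. Of 10 measured, 7 rose and 0 fell (6 and 0 in both fits; median 0.83); with unadjusted p under 0.05 the falls were also 0. Gbp2b gave 8.38, 8.33, 9.16 and 9.09 against 5.49, 5.86, 5.92 and 5.93 and Gbp2 gave 8.46, 8.22, 9.13 and 9.01 against 5.42, 5.78, 5.85 and 6.07. In both genes every array labelled Tgif1 OE was at least 2.39 and 2.15 above the highest control array. Gbp7 (1.29 ± 0.11), Gbp3 (1.28 ± 0.20), Irgm2 (1.00 ± 0.11), Igtp (0.66 ± 0.12) and Irgm1 (0.62 ± 0.14) rose less. Ifi47 (0.08 ± 0.12), Gbp6 (0.09 ± 0.05) and Iigp1 (0.21 ± 0.12) did not pass. Members of this family are similar in sequence, and probe sets can hybridise to more than 1 of them.

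The interferon site searched was GAAA followed after any 2 bases by a second GAAA, on either strand, the core shared by elements that bind interferon regulatory factors. It was present in the promoters of 7 of the 8 GTPase genes with one in the table, and these were the 7 that rose. The list holds 10 measured genes, and most of those that did not rise had no promoter to search. The site could therefore not be compared between genes that rose and genes that did not. It was present in 3.84% of the genes of the array with a promoter and in 3.44% of all promoters. The stretches of 6 of them are given with the site in capitals; TTTC at its left end marks the opposite strand.
Gbp2b, chr3:142594680-142594749, plus strand: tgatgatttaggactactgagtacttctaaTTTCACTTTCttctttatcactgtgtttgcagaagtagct
Gbp2, chr3:142620574-142620643, plus strand: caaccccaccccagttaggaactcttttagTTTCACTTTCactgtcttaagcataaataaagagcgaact
Gbp3, chr3:142559969-142560038, plus strand: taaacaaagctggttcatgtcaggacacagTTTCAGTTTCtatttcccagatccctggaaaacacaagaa
Gbp7, chr3:142530253-142530322, plus strand: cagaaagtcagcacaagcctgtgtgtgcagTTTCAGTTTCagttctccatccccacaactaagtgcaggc
Irgm2, chr11:58214883-58214952, plus strand: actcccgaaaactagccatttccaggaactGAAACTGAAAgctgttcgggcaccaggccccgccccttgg
Igtp, chr11:58199492-58199555, plus strand: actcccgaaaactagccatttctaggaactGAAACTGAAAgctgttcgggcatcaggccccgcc
The site starts 137 bases before the start of Gbp2b and 59, 45, 53, 64 and 34 bases before those of Gbp2, Gbp3, Gbp7, Irgm2 and Igtp.

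Genes of antigen processing for MHC class I rose in 9 of 12 cases and fell in 0, also at an unadjusted p under 0.05 (6 and 0 in both fits; median 0.58). Erap1, the aminopeptidase that trims peptides in the endoplasmic reticulum, rose by 1.76 ± 0.13, and the immunoproteasome subunits Psmb8 (1.50 ± 0.11) and Psmb9 (0.77 ± 0.07) rose with it. Psmb8 gave 7.10, 7.09, 7.19 and 7.18 against 5.61, 5.57, 5.80 and 5.59. The peptide-loading genes Tapbp (0.87 ± 0.11) and Tap1 (0.64 ± 0.08) and the light chain B2m (0.64 ± 0.18) rose. B2m lost its call when 1 array was left out (adjusted p = 0.0511 to 0.0559 without BirA control replicates 1 or 2 or Tgif1 OE replicates 3 or 4), and the 3 other Tap1 probe sets were not called (between -0.09 and 0.11). The class I heavy chains H2-K1 (0.22 ± 0.13) and H2-D1 (0.19 ± 0.10) did not pass. The wider interferon response list gave 5 rises and 3 falls of 22, a share of 36.4%, with a median of 0.07; without BirA control replicate 1 or Tgif1 OE replicate 3 it gave 3 and 2, and in both fits 2 and 2. Bst2 (0.67 ± 0.13), Irf1 (0.45 ± 0.07) and Oasl2 (0.47) rose, while Irf9 (-0.64 ± 0.09) and Ifitm1 (-0.64 ± 0.09) fell in both fits. The antiviral genes Ifit1 (0.15), Ifit3 (-0.12), Mx1 (-0.06), Rsad2 (0.09) and Oas1a (-0.18) and the factor Stat2 (-0.06) did not pass. The interferon site was present in 9 of the 19 promoters of that list and in 1 of the 4 belonging to its rising genes. In the NF-kB and TNF family list 7 of 22 rose and 1 fell (5 and 1 in both fits): Ltb, the Tweak receptor Tnfrsf12a (0.80 ± 0.18), the chemokine Cxcl1 (0.66 ± 0.14), Birc3 (0.65) and Rela (0.44) rose in both fits, and Icam1 fell (-0.64 ± 0.13). Not called were other probe sets of Tapbp (0.11) and Birc3 (0.03).

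**Figure D4:**
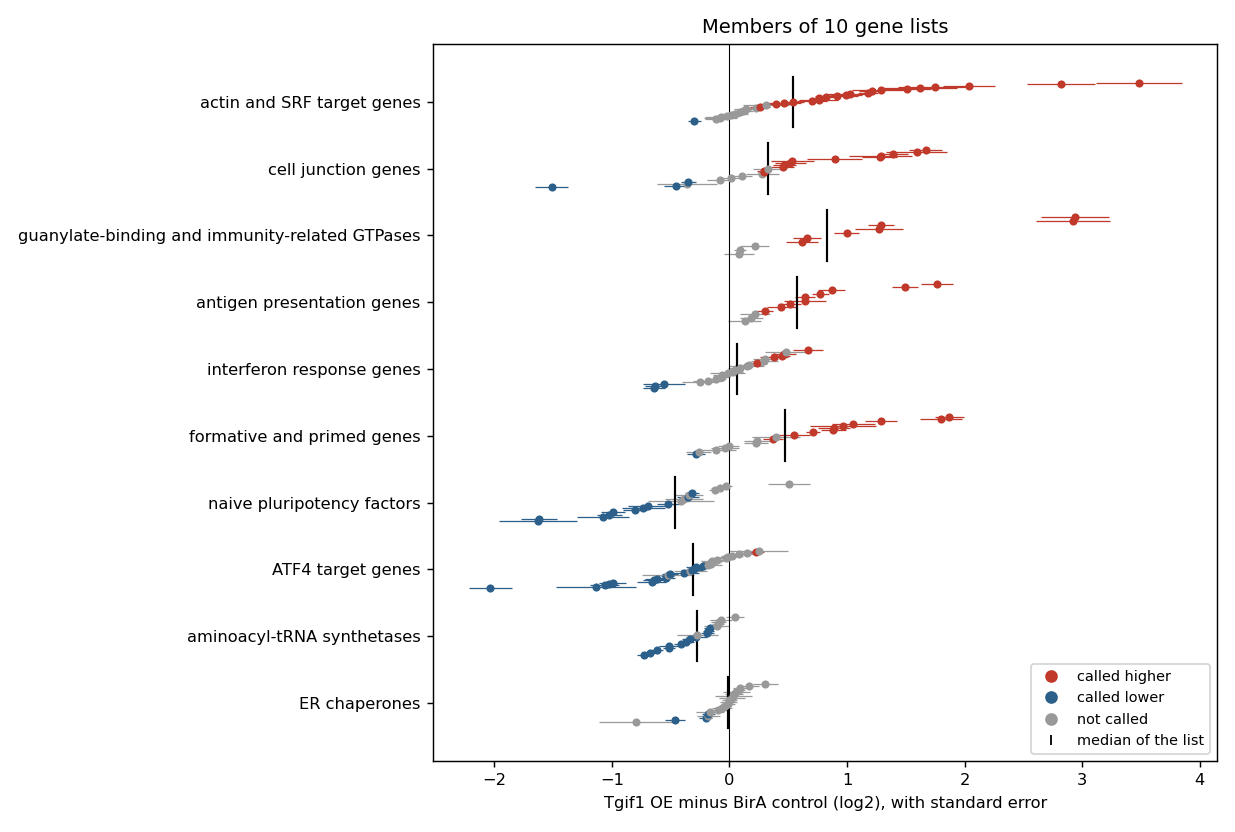
Change (log2) of every measured member of 10 gene lists, with its standard error; red and blue points were called higher and lower, grey points were not called, and the black line is the median of each list. The actin, junction, GTPase and antigen presentation lists lie mostly right of 0, the naive factors, ATF4 targets and aminoacyl-tRNA synthetases mostly left, and the interferon response and ER chaperone lists around 0.

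Naive pluripotency factors hold ES cells in the state of the pre-implantation epiblast. Of 18 measured, 11 fell and 0 rose (9 and 0 in both fits, median -0.47), and the rises with unadjusted p under 0.05 numbered 1. The highest change in the list was 0.51. With the replicate number as a block 14 fell and 1 rose, and 1 also rose without BirA control replicate 1 or 2. Tbx3 gave 8.60, 8.55, 7.67 and 7.78 against 9.95, 9.82, 9.69 and 9.66, with replicates 3 and 4 lowest. Esrrb, an orphan nuclear receptor, gave 9.82, 9.74, 9.04 and 8.99 against 10.67, 10.63, 10.29 and 10.31, a change of -1.08 ± 0.22, and the groups did not overlap. Nr0b1 (-1.02 ± 0.11), Tfcp2l1 (-0.99 ± 0.10), Fbxo15 (-0.80 ± 0.10), Nanog (-0.69 ± 0.17), Klf2 (-0.52 ± 0.10) and Fgf4 (-0.32 ± 0.06) fell in both fits, and Zfp42 (-0.35 ± 0.09) in the first fit; Zfp42 lost its call when 1 array was left out (adjusted p = 0.0509 to 0.0547 without BirA control replicate 1 or Tgif1 OE replicate 4). The 2 other Tfcp2l1 probe sets were not called. With the replicate number as a block, Klf4 and Klf5 were called (adjusted p = 0.0105 and 0.00265). Without it Klf4 (-0.39 ± 0.16) and Klf5 (-0.41 ± 0.28) did not pass, nor did the core factors Pou5f1 (-0.12 ± 0.05) and Sox2 (-0.08 ± 0.08). Nanog gave 11.66, 11.74, 11.19 and 11.18 against 12.33, 12.30, 11.96 and 11.94. Other probe sets without a call were those of Fgf4 (-0.16 and -0.36).

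Formative and primed genes, which rise as the epiblast leaves the naive state, moved the other way: 10 of 18 rose and 1 fell (8 and 0 in both fits; median 0.47). Pou3f1, the POU factor Oct6, gave 10.99, 10.83, 11.11 and 11.10 against 9.06, 9.09, 9.36 and 9.33, a rise of 1.80 ± 0.18. Sall2 (1.87 ± 0.12), Lef1 (1.05 ± 0.18), Zic5 (0.89 ± 0.14) and Otx2 (0.55 ± 0.14) rose, as did the de novo DNA methyltransferases Dnmt3a (0.88 ± 0.11) and Dnmt3b (0.71 ± 0.06). Fgf5, the usual marker of the primed epiblast, was at 0.24 ± 0.11 without a call, and Sox3 (0.23), Etv4 (-0.11) and Etv5 (-0.26) did not pass either. Fgf15 fell (-0.28 ± 0.07). Uhrf1 (-0.18), which takes part in maintenance methylation, and the cofactor Dnmt3l (-0.03) did not pass. With the replicate number as a block, Sox3 (adjusted p = 0.0425) and Uhrf1 (0.0439) were called. The fit over probe sets did not call other ones of Dnmt3a (0.48).

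Among lineage lists the share called ran from 5.0% to 45.0%. Of 20 mesoderm and primitive streak genes 1 passed in both fits (2 without BirA control replicate 4 or Tgif1 OE replicate 4), Bmp4, which is listed there and fell; Eomes (0.11), Mixl1 (0.34) and Mesp1 (0.12) did not. With the replicate number as a block 1 rose, Mixl1 (adjusted p = 0.0104), and 3 fell. In primitive endoderm 4 of 19 rose, among them Dab2 (0.73 ± 0.09) and Lrp2 (0.62 ± 0.10), and Lama1 fell (3 and 1 in both fits), while Gata4 (-0.08), Gata6 (0.07) and Sox17 (0.13) did not pass. In trophectoderm 7 of 20 rose and 2 fell, but 1 and 0 in both fits; Cdx2 was at 0.51 ± 0.18 without a call (adjusted p = 0.0144 with the replicate number as a block). Of 23 neural genes 7 rose and 2 fell (6 and 2 in both fits): Pou3f1, Nefm, Gap43 (1.05 ± 0.17), Nes (0.89 ± 0.15) and Sox11 (0.69 ± 0.14) were among the rises, Mapt and Ncam1 fell, and Sox1 (-0.08) and Pax6 (-0.11) did not pass. Of 17 germline genes 7 fell and 0 rose (6 and 0 in both fits); beside Prdm1 these included Hormad1 (-1.21 ± 0.24), Dazl (-1.10 ± 0.28), Stk31 (-0.74), Rhox5 (-0.72) and Piwil2 (-0.58) in both fits. With unadjusted p under 0.05, the germline rises numbered 1. With the replicate number as a block 2 germline genes rose and 7 fell, and 1 rose without BirA control replicate 1 or 2. Not called were other probe sets of Dab2 (0.15).

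Genes of the Nodal, activin and TGF-beta pathway, in which Tgif1 is known to act, moved in both directions. Among 14 ligands and their secreted inhibitors, 2 rose and 3 fell (2 and 2 in both fits), or 1 and 2 without BirA control replicate 1 or Tgif1 OE replicate 3. The rises were Tgfb2, a TGF-beta ligand (1.41 ± 0.41), and Fst, the activin-binding inhibitor follistatin (1.25 ± 0.13). Tgfb2 gave 4.84, 5.03, 6.29 and 6.41 against 4.01, 4.07, 4.48 and 4.38, and its groups did not overlap. Tgfb2 lost its call when 1 array was left out (adjusted p = 0.0552 to 0.0756 without BirA control replicates 1 or 2 or Tgif1 OE replicates 3 or 4). The falls were the activin subunit Inhbb (-0.77 ± 0.20), Gdf3 (-0.31 ± 0.05) and Nodal (-0.16 ± 0.05); Nodal, too, was not called without 1 array (adjusted p = 0.0647 to 0.0931 without BirA control replicates 1, 3 or 4 or Tgif1 OE replicates 1, 2 or 3). Lefty1 (-0.32 ± 0.13) and Cer1 (-0.11) did not pass. Among 16 receptors and Smads, 3 rose and 3 fell, with 1 and 0 in both fits; 3 in all were called without any 1 of the arrays except BirA control replicate 1. The receptor gene Acvr1 rose in both (0.63 ± 0.07), but its 2 other probe sets were not called. The inhibitory Smad7 (-0.31 ± 0.08) fell in the first fit, and was not called without 1 array (adjusted p = 0.0546 without Tgif1 OE replicate 4). Smad2 (0.07), Smad3 (-0.03) and Smad4 (0.11) did not pass. Of 15 TGF-beta response genes 4 rose and 5 fell (3 and 2 in both fits). Ccn1, Ccn2 and the Smad corepressor gene Skil (0.60 ± 0.15) rose in both fits, and Timp1 and Tgif1 itself, which is listed as such a gene, fell in both. Of 11 corepressors that work with Tgif proteins 2 rose and 1 fell, or 3 and 2 with the replicate number as a block, and Ctbp1 (0.30 ± 0.07) alone was called in both fits; it was the only call in the list without BirA control replicate 1 or Tgif1 OE replicate 1, 3 or 4. Other probe sets without a call were those of Inhbb (-0.23) and Skil (0.28). A second Nodal probe set was called lower, at -0.40 (limma over probe sets, adjusted p = 0.0385).

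The BMP list gave 7 rises and 3 falls of 21, with 3 and 2 in both fits. While the ligand Bmp4 fell, the Id genes, inhibitors of basic helix-loop-helix factors and common BMP targets, rose: Id2 by 1.28 ± 0.26 and Id3 by 1.08 ± 0.13 in both fits, and Id1 by 0.80 ± 0.27 in the first. Id1 was not called without 1 array (adjusted p = 0.0586 to 0.143 without BirA control replicates 1, 2 or 4 or Tgif1 OE replicates 3 or 4). Id3 gave 9.56, 9.57, 9.82 and 9.89 against 8.56, 8.33, 8.84 and 8.79. Id4 fell (-0.66 ± 0.12). The receptors Bmpr1a (0.49 ± 0.05) and Bmpr2 (0.44 ± 0.10) rose, Bmpr2 in the first fit only. Of 28 Wnt genes 7 rose and 2 fell (5 and 1 in both fits): Sp5 (1.59 ± 0.34), the ligand Wnt4 (1.41 ± 0.20), the receptors Fzd2 (1.06 ± 0.09) and Fzd7 (0.55) and Lef1 rose in both fits, and the secreted inhibitor Sfrp1 fell (-0.94 ± 0.12). Axin2, the standard readout of the canonical pathway, was at 0.02 ± 0.08 and did not pass. Of 19 retinoic acid genes (2 rises and 1 fall in both fits), 4 rose, led by the binding protein Crabp2 (1.47 ± 0.21) and Rdh10 (0.56 ± 0.12), and 2 fell, led by Tgm2 (-1.10 ± 0.18). The LIF list gave 2 rises and 1 fall of 17 (17.6%; 0 and 1 in both fits and without BirA control replicate 1; 3 and 2 with the replicate number as a block), below the share over all genes, with Socs3 at 0.03 and Stat3 at -0.25. The FGF list gave 3 rises and 3 falls of 19 (2 and 2 in both fits), with Phlda1 (1.05 ± 0.19) and Dusp6 (0.53 ± 0.10) higher. The fit over probe sets did not call other ones of Id2 (0.21), Bmpr1a (0.16), Fzd7 (-0.04) and Tgm2 (-0.23 and 0.03).

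ATF4 is the transcription factor of the integrated stress response; it turns on amino acid synthesis, amino acid import and tRNA charging. Of 30 measured targets 16 fell and 1 rose (11 and 0 in both fits; median -0.31). Nupr1 led them. Asns, asparagine synthetase, gave 11.17, 11.23, 10.90 and 10.84 against 12.24, 12.24, 11.93 and 11.95, a change of -1.06 ± 0.12; the groups did not overlap. The glutathione-degrading enzyme gene Chac1 (-1.13 ± 0.34), the pseudokinase gene Trib3 (-1.02 ± 0.07), the mitochondrial carboxykinase gene Pck2 (-0.99 ± 0.11), the factor Ddit3 (Chop, -0.66 ± 0.12) and the serine synthesis genes Psph (-0.62 ± 0.10) and Psat1 (-0.53 ± 0.06) fell. Atf4 itself fell by 0.64 ± 0.09 on its brightest probe set, and of its other probe sets 1 fell (-0.67) and 1 was at -0.11 without a call. Phgdh (-0.11), Slc7a11 (-0.03) and Mthfd2 (-0.15) did not pass. Atf3, counted with the AP-1 genes and not in this list, rose by 0.78, and its promoter holds the ATF4 site searched below. Chac1 was called in the first fit only (adjusted p = 0.0278; 0.0676 in the second), and not without 1 array (adjusted p = 0.063 to 0.0919 without BirA control replicates 1 or 2 or Tgif1 OE replicates 3 or 4).

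The aminoacyl-tRNA synthetases, which load amino acids onto tRNA, gave 12 falls and 0 rises of 18 (8 and 0 in both fits; median -0.28), each fall smaller than 2-fold. The largest were Yars (-0.73 ± 0.06), Cars (-0.67 ± 0.07), Sars (-0.62 ± 0.06), Nars (-0.51 ± 0.05) and Aars (-0.51 ± 0.09). Yars gave 8.31, 8.30, 8.20 and 8.14 against 8.98, 8.90, 9.02 and 8.96. With unadjusted p under 0.05, 0 synthetases rose. The chaperones of the endoplasmic reticulum, targets of the other stress branches, had 3 falls and 0 rises of 20 (below the share over all genes; 1 fall in both fits and without BirA control replicate 1 or Tgif1 OE replicate 2; 4 falls and 1 rise with the replicate number as a block): Hspa5 was at 0.09 ± 0.06, Hsp90b1 at 0.04 and Calr at -0.01, and Xbp1 fell (-0.46 ± 0.09). With unadjusted p under 0.05 the chaperone rises numbered 1. Not called were other probe sets of Cars (-0.18) and Xbp1 (-0.19).

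The ATF4 site searched was TGATGNAA on either strand. It was present in 8 of 26 promoters of the ATF4 list, 5 of them among the 13 of genes that fell, and in 5 of 11 promoters of the synthetases, all 5 of them among the 8 that fell. It was found in 3.13% of the genes of the array with a promoter and in 3.97% of all promoters. The stretches below belong to 4 of the genes that fell, with the site in capitals; TTGCATCA is the site read from the opposite strand.
Nupr1, chr7:126625543-126625610, minus strand: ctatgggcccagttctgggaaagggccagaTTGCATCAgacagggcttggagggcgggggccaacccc
Chac1, chr2:119351019-119351086, plus strand: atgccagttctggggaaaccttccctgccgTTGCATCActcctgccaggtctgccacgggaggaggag
Asns, chr6:7693210-7693262, minus strand: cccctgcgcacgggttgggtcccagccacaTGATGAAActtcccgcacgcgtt
Aars, chr8:111033700-111033767, plus strand: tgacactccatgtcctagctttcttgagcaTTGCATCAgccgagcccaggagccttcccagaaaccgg
The site starts 23 bases before the start of Asns, 110 before that of Nupr1, 112 before that of Aars and 193 before that of Chac1.

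Of 19 cholesterol synthesis genes 6 fell and 1 rose (4 and 0 in both fits), led by Tm7sf2 (-0.96 ± 0.10), while Hmgcs1 (0.12) and Sqle (0.19; adjusted p = 0.046 with the replicate number as a block) did not pass. Of 22 glycolysis and hypoxia genes 7 fell and 2 rose, with 2 and 1 in both fits: Pfkp (-0.94 ± 0.21) and Egln3 (-0.69 ± 0.12) fell, and the glucose transporter gene Slc2a1 rose (0.45 ± 0.07). The 21 glutathione genes gave 4 rises and 5 falls (3 and 2 in both fits, 7 and 7 with the replicate number as a block), and 27 respiratory chain genes 1 rise and 6 falls, with 0 and 0 in the second fit (1 and 5 there at an unadjusted p under 0.05). Ribosomal protein genes gave 1 rise of 15 (6.67%), lost without any 1 of 6 of the arrays, those other than BirA control replicates 3 and 4, and in the second fit. Other probe sets without a call were those of Egln3 (-0.27) and Slc2a1 (0.46).

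Targets of p53 rose in 10 of 19 cases and 1 fell (5 and 1 in both fits, 6 and 1 without BirA control replicate 4; median 0.29). The cell death genes Perp and Pmaip1 (Noxa, 1.40 ± 0.16), the kinase Plk2 (0.93 ± 0.21), Phlda3 (0.69 ± 0.10) and Ccng1 (0.58 ± 0.13) rose in both fits, while Mdm2 (0.22 ± 0.11) did not pass and Plk3 fell (-0.50 ± 0.08). Of 15 Bcl2 family genes, 4 rose, among them Pmaip1, Bok (0.68 ± 0.05) and Bcl2l11 (Bim, 0.63 ± 0.13), and 0 fell (3 and 0 in both fits); with unadjusted p under 0.05 the falls numbered 0. In the cell cycle list 6 of 24 rose and 4 fell (1 and 3 in both fits), or 2 and 4 without BirA control replicate 3 or 4. Ccnd3, the D-type cyclin, fell (-1.19 ± 0.12), as did the Ink4a/Arf gene Cdkn2a (-1.05 ± 0.10), and the imprinted inhibitor Cdkn1c rose (1.18 ± 0.13); the mitotic genes Ccna2 (-0.03), Ccnb2 (0.0067) and Cdk1 (0.06) did not pass. Of 25 imprinted genes 9 rose and 1 fell (5 and 1 in both fits). Igf2 rose by 1.26 ± 0.16, Sgce by 0.94 ± 0.15, Ndn by 0.81 ± 0.17 and Gnas by 0.58 ± 0.08, and Plagl1 fell (-0.36 ± 0.06). The second Igf2 probe set (0.11) and the 3 other Gnas probe sets were not called, and 4 of the 7 other Ndn probe sets rose. Of 21 Polycomb subunits 2 rose, Phc2 (0.57 ± 0.13) and Cbx2 (0.46 ± 0.10), and 4 fell (2 and 1 in both fits), with Ezh2 (-0.15; adjusted p = 0.0373 with the replicate number as a block) and Suz12 (-0.06) not passing. Of 12 Myc network genes 1 rose, Mycn (0.36 ± 0.05), and 3 fell, led by Max (-0.46 ± 0.08), with 1 and 1 in both fits. The fit over probe sets did not call other ones of Ccng1 (0.34), Bcl2l11 (0.36 and 0.22), Cbx2 (0.04) and Mycn (0.15 and -0.09).

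The change differed between the pairs of replicates for 485 genes, 3.91% of those tested, in a limma interaction contrast: 210 were higher in replicates 3 and 4 than in replicates 1 and 2 (1.69%), and 275 lower (2.22%). The count was 183 without Tgif1 OE replicate 3, 374 without Tgif1 OE replicate 1 and between these without any other 1 of the 8 arrays. With the replicate number as a block it was 151, of which 139 were among the 485. The 12 genes named next, 6 in each direction with the smallest p, were called each time, which their choice by p on these same arrays favours. In the neurofilament gene Nefm, arrays 1 to 4 labelled Tgif1 OE gave 6.59, 6.59, 8.16 and 8.20 and BirA control gave 5.94, 6.08, 5.74 and 5.60, so that the change was 0.58 in the first pair and 2.50 in the second (difference 1.93 ± 0.10, adjusted p = 4.23e-06). Over all arrays Nefm rose by 1.54 ± 0.44, a call lost when 1 array was left out (adjusted p = 0.0516 to 0.0723 without BirA control replicate 4 or Tgif1 OE replicates 3 or 4). The desmoplakin gene Dsp went from 0.20 to 1.59 in the same way (4.23e-06), but of its other probe sets 1 rose over all arrays (0.77) and 1 did not pass (-0.02). In Anxa2, annexin 2, the change was -0.65 in the first pair and 1.51 in the second (adjusted p = 1.24e-04): the control arrays were 8.32, 8.09, 6.92 and 6.92 and the others 7.58, 7.53, 8.47 and 8.37. Its control level was higher in replicates 1 and 2 than in 3 and 4, and the arrays labelled Tgif1 OE had the opposite order. Its 2 other probe sets changed by -0.05 and -0.04 over all arrays without a call. Sfmbt2, a Polycomb-group gene (-0.79 and 0.61), and the Y-linked demethylase Uty (-0.89 and 0.29) also changed sign, and Tmem40 was lower in the first pair with little difference in the second (-1.84 and -0.14). In Tmem40 the arrays labelled Tgif1 OE lay between 7.17 and 7.28 throughout, and the BirA control arrays were 9.03, 9.16, 7.35 and 7.33; its fall over all arrays was not called when 1 array was left out (adjusted p = 0.0772 to 0.148 without BirA control replicates 1 or 2 or Tgif1 OE replicates 1, 2, 3 or 4).

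The 6 genes with the smallest p in the other direction were lower in replicates 3 and 4. Calb2, the calcium buffer calretinin, was at 0.25 in the first pair and -0.99 in the second (adjusted p = 1.98e-04), and Ica1, a gene of secretory vesicles, at 0.34 and -0.37. The fatty acid binding protein gene Fabp3 (-0.14 and -0.93), Inhbb (-0.38 and -1.16), the Ras-related gene Mras (-0.65 and -1.54) and the nuclear receptor Nr5a2 (-0.04 and -0.65) were lower in both pairs and lower still in the second. Over all arrays Nr5a2 was at -0.35 ± 0.12 (adjusted p = 0.0509, 0.0405 with the replicate number as a block), and its 3 other probe sets fell (between -0.50 and -0.46). Inhbb gave 8.74, 8.62, 8.83 and 8.82 against 9.01, 9.13, 9.94 and 10.02, where the control arrays 3 and 4 were the highest of the 8. The pairs differ in 2 arrays against 2, and what else differs between them was not tested.

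**Figure D5:**
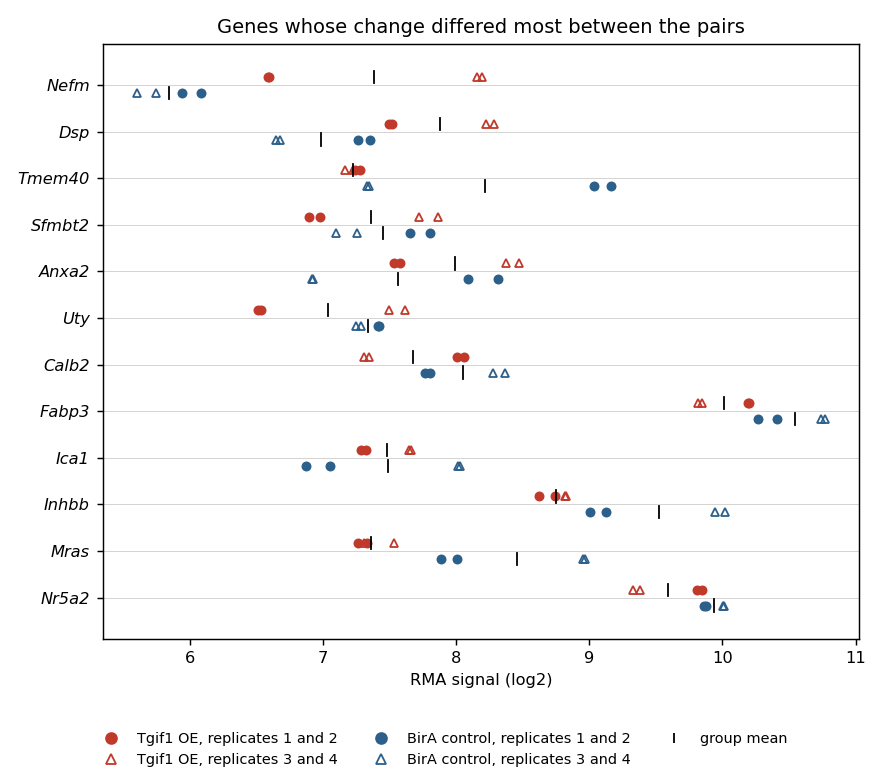
RMA signal (log2) on each of the 8 arrays for the 6 genes per direction with the smallest p for a difference in change between the pairs of replicates; colours, marks and ticks are as in the plot of the largest rises and falls. In Anxa2, Sfmbt2 and Uty the order of the groups differs between circles and triangles, and in Tmem40 the control arrays of replicates 1 and 2 stand apart at 9.03 and 9.16.

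The 4 arrays labelled Tgif2 OE, from the same arm, allowed a direct test of which leading changes were larger with Tgif1. The deposited signals of those arrays were shifted as a whole, with a median over all genes of -0.10 for Tgif1 OE minus Tgif2 OE, and the split of calls moved from 279 higher and 2160 lower to 616 and 620 after quantile normalisation of all 16 arrays, so values after that normalisation are given (9.97% of genes called, against 19.7% with the deposited values). The leading genes were chosen on the same arrays labelled Tgif1 OE, so the direction of this contrast is not independent of the choice. All 15 leading rises were higher on arrays labelled Tgif1 OE, but 3 passed: Gbp2b (by 1.12, adjusted p = 0.0246), Calcr (0.94, 0.0186) and Igfbp3 (0.83, 0.0257). Tagln was 1.03 higher (0.085), Krt8 1.10 (0.0638) and Myl9 0.33 (0.511), which did not pass. All 15 leading falls were lower, and 9 passed: Acss1 (-1.10), Gjb5 (-1.06), Msc (-0.98), Abcb1a (-0.94), Prdm1 (-0.87), Lgals3 (-0.66), Nupr1 (-0.66), Tcl1 (-0.59) and Bmp4 (-0.43). Mapt (-0.02, 0.924) and Timm8a2 (-0.01, 0.976) were close to 0 in this contrast. The same 3 rises and 9 falls passed with the deposited values. The checks that follow used the deposited values too, and their shift makes rises smaller and falls larger. There the random block called 42 genes higher and 365 lower, and the block of the replicate number 442 and 2981. These checks thus do not weigh rises and falls evenly. With those values 7 of the 12 passed with the pairs as a random block, namely Acss1, Gjb5, Msc, Abcb1a, Prdm1, Lgals3 and Tcl1, and 9 passed without any 1 of the arrays; the 3 rises were in neither set. With the replicate number as a block 8 of the 15 rises and 12 of the 15 falls passed on the deposited values, among them Tagln (adjusted p = 0.0151), Krt8 (0.0193), Phldb2 (0.0241), Gbp2 (0.0273) and Krt18 (0.0472).

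The knockdown arm of the series held 2 arrays labelled Tgif1 KD and 2 labelled shControl, with no array in common with the arms above. Tgif1 itself was at -3.39 on Tgif1 KD relative to shControl. Of the 15 leading falls, 14 had a higher mean on Tgif1 KD than on shControl arrays, for example Lgals3 (1.48), Acss1 (1.42), Gjb5 (1.33) and 2210409E12Rik (2.54); Msc was the exception (-0.17). Over all 1179 genes that fell, 65.0% were higher on Tgif1 KD, against 43.0% of all genes. Of the 15 leading rises 10 were lower on Tgif1 KD, for example Myl9 (-0.88) and Krt18 (-0.86), whereas Phldb2 was higher (1.37). Over all 1408 genes that rose, 57.2% were lower on Tgif1 KD, against 57.0% of all genes. These are means of 2 arrays and no test is attached to them.

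The labelled cell type was checked against its markers. The 10 ES cell markers had log2 levels of 10.67 to 14.19 on BirA control, and their mean was 11.82 to 12.04 on arrays labelled Tgif1 OE and 12.06 to 12.26 on BirA control; 5 of the 10 fell, 2 of them in both fits, and 2 or 3 without BirA control replicate 1, 2 or 4 or Tgif1 OE replicate 3 or 4. Of 15 fibroblast markers, which feeder cells would bring, 4 rose, among them Dcn (0.49 ± 0.10) and Col1a2 (0.61 ± 0.13; 0.40 on its other probe set, without a call), and 0 fell; 0 were called in the second fit (3 rises and 0 falls at an unadjusted p under 0.05), and 2 rose without BirA control replicate 1 or 3 or Tgif1 OE replicate 3 or 4. Their mean was 4.75 to 4.96 against 4.59 to 4.77, so the ranges overlapped. These stand beside the rises of the matrix and actin lists, and their part in them was not tested. Among blood cell markers 2 of 7 fell and among endothelial markers 2 of 8 (2 and 1 in both fits), and 0 rose in either, also at an unadjusted p under 0.05. The 5′ minus 3′ difference of the Gapdh control probe sets was -0.17 ± 0.14 (SD, n = 4) on arrays labelled Tgif1 OE and -0.08 ± 0.04 on BirA control (exact permutation test, two-sided, p = 0.343). For Actb it was -0.54 ± 0.10 and -0.51 ± 0.05 (exact p = 0.571). The smallest p that 4 against 4 arrays can give is 0.0286. In a bulk measurement, fewer cells of a type and less RNA per cell cannot be told apart.

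The site that Tgif proteins are known to bind, TGTCA, equal to TGACA on the opposite strand, is short and was present in 42.9% of the 9887 genes with a promoter. It was present in 36.0% of the 1129 such genes that rose and in 47.3% of the 960 that fell. Among genes called in both fits without overlap the shares were 36.0% of 555 and 49.0% of 396. These are shares of letters in a fixed window and were not tested.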

How the data were processed

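Signals of 16 arrays in 5 groups were used as deposited by the authors, as log2 values after RMA, per the submitters' processing notes, which also name limma. The annotation names 1 gene for 20380 of 22690 probe sets, several for 691 and none for 1555, and 64 are controls; probe sets with several or no symbol were not analysed. Where a gene had several probe sets (4956 genes), the brightest on average was used. Group means were fitted with limma 3.58.1 in R 4.3.3, with Benjamini-Hochberg adjustment over 12393 genes and a threshold of 0.05. The second fit added a random block of group and replicate pair by duplicateCorrelation. The genes named are Tgif1 and Tgif2, the 15 largest rises and falls called in both fits without overlap of the groups, the 6 genes per direction with the smallest interaction p, and members of 49 lists (824 of 927 distinct genes measured). The comparison and the lists were chosen with earlier results of these data known. Deviations of arrays with the same replicate number correlated between the groups at 0.32 to 0.40. Those of the other number of the same pair did so at 0.32 to 0.40 as well, and those of the other pair stood at -0.40 to -0.32. The arrays thus went together by pair, and a closer match by number was not seen. The block of the replicate number was kept as an alternative fit. Alternatives were quantile normalisation, no dim genes, the mean of a gene's probe sets, single probe sets, a trended robust variance, the compared arrays alone, blocks for number and pair, pair means, each pair alone, and each array left out. Promoters came from the RefSeq table of GRCm38.p6 and were matched by symbol. The arrays carry no read depth, and their number limits the precision.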

Additional observations from a re-analysis of the deposited data

Results flagged for a closer look

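In 18 of 568 groups of 4 arrays, counting both groups for each gene named, 1 array stood apart by Dixon's test, fewer than the 1 in 20 that chance alone flags. The array was higher than the others in Calr on BirA control replicate 1 (12.03; others 11.80 to 11.83), Crabp2 on BirA control replicate 3 (6.16; others 6.03 to 6.05), Dnmt3b on BirA control replicate 2 (11.93; others 11.84 to 11.85), Efemp1 on BirA control replicate 1 (3.87; others 3.63 to 3.63), Fgf5 on Tgif1 OE replicate 2 (4.68; others 4.11 to 4.19) and Itga3 on BirA control replicate 3 (6.76; others 6.44 to 6.49). The array was higher than the others in Plk3 on Tgif1 OE replicate 2 (6.66; others 6.45 to 6.46), Ptpn14 on Tgif1 OE replicate 2 (7.23; others 6.91 to 6.96) and Slc7a11 on BirA control replicate 3 (3.49; others 3.28 to 3.31). It was lower in Axin2 on Tgif1 OE replicate 1 (6.50; others 6.75 to 6.77), Cnn2 on BirA control replicate 1 (9.002; others 9.04 to 9.04), Dab2 on Tgif1 OE replicate 2 (5.31; others 5.67 to 5.71), Fzd7 on Tgif1 OE replicate 3 (10.99; others 11.03 to 11.03), Gbp2b on BirA control replicate 1 (5.49; others 5.86 to 5.93) and Gbp6 on BirA control replicate 1 (2.74; others 2.79 to 2.80). It was lower in Slc2a1 on Tgif1 OE replicate 3 (12.23; others 12.29 to 12.29), Smad3 on Tgif1 OE replicate 2 (4.34; others 4.58 to 4.62) and Stk31 on Tgif1 OE replicate 2 (5.54; others 6.01 to 6.10).

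For 65 genes named, the change between the groups differed between replicates 1 and 2 and replicates 3 and 4 by the interaction test of limma, at an adjusted p under 0.05 over all genes tested. Values are the difference, with the changes in the first and the second pair in parentheses. A rise larger in the second pair was found for Dsp 1.39 (0.20, 1.59), Nefm 1.93 (0.58, 2.50), Krt18 1.02 (2.35, 3.37), Efemp1 1.81 (1.50, 3.31), Phlda1 0.86 (0.62, 1.48), Pmaip1 0.73 (1.04, 1.77), Krt8 1.02 (2.27, 3.30) and Pkp2 0.67 (0.18, 0.86). Larger second-pair rises were also found for Ltb 0.81 (2.64, 3.45), S100a6 0.48 (0.81, 1.30), Tpm1 0.59 (1.22, 1.81), Dsc2 1.32 (0.63, 1.95), Ccng1 0.64 (0.26, 0.90), Cald1 0.64 (1.30, 1.94), Id2 0.74 (0.91, 1.65) and Tnfrsf12a 0.68 (0.47, 1.14). Larger second-pair rises were also found for Epcam 0.51 (0.21, 0.72), Anxa1 0.76 (0.83, 1.59), Plk2 1.07 (0.40, 1.47), Phldb2 1.00 (2.27, 3.27), Acta2 0.71 (1.40, 2.11), Tgfb2 1.03 (0.90, 1.92), Cldn7 0.55 (1.39, 1.95) and Bst2 0.60 (0.37, 0.97). Larger second-pair rises were also found for Anxa3 0.65 (2.46, 3.11), Igfbp3 0.59 (2.26, 2.85), Prss23 1.29 (2.12, 3.41), Tpm4 0.41 (0.55, 0.96), Cldn6 0.48 (1.04, 1.52), H2-K1 0.39 (0.03, 0.42) and Ocln 0.53 (1.13, 1.66). A fall larger in the second pair was found for Fabp3 -0.78 (-0.14, -0.93), Inhbb -0.77 (-0.38, -1.16), Mras -0.89 (-0.65, -1.54), Nr5a2 -0.61 (-0.04, -0.65), Msc -1.004 (-0.98, -1.98), Tfcp2l1 -0.62 (-0.68, -1.30), Gjb5 -0.62 (-1.20, -1.82) and Klf4 -0.42 (-0.18, -0.60). Further falls of this kind were Tbx3 -0.64 (-1.31, -1.95), Mapt -0.48 (-1.39, -1.87), Nupr1 -0.72 (-1.67, -2.39), Klf2 -0.41 (-0.31, -0.72), Esrrb -0.41 (-0.87, -1.28), Ccnd3 -0.33 (-1.02, -1.35), Ifitm1 -0.31 (-0.48, -0.79) and Fos -0.47 (-0.11, -0.58). Further falls of this kind were Smad7 -0.37 (-0.12, -0.49), Prdm1 -0.71 (-1.05, -1.76) and Tcl1 -0.37 (-1.44, -1.80). Rises larger in the first pair were Ctbp1 -0.32 (0.46, 0.14) and Fzd7 -0.35 (0.73, 0.38). Falls larger in the first pair were Tmem40 1.69 (-1.84, -0.14), 2210409E12Rik 0.88 (-2.44, -1.56) and Timm8a2 0.83 (-2.19, -1.36). The sign differed between the pairs for Sfmbt2 1.41 (-0.79, 0.61), Anxa2 2.15 (-0.65, 1.51), Uty 1.18 (-0.89, 0.29), Calb2 -1.24 (0.25, -0.99), Ica1 -0.71 (0.34, -0.37), Oas1a -0.55 (0.09, -0.46), Twist1 0.90 (-0.54, 0.36) and Tle3 -0.48 (0.002, -0.47). It differed as well for Dnmt3l 0.63 (-0.35, 0.28) and Mdm2 0.54 (-0.05, 0.49). The adjusted p ran from 4.23e-06 (Dsp) to 0.0491 (Ocln). The labels do not say what sets the pairs apart, and the source of these differences was not tested.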

How the results depend on the processing

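The 2587 genes called between arrays labelled Tgif1 OE and BirA control became 1191 with the pairs of replicates as a random block and 104 with the mean of each pair as 1 sample; the latter has fewer samples. The other settings gave between 1915 (replicates 1 and 2 alone) and 3878 (pair as a fixed block), and leaving out 1 array gave 2053 to 2372. The 485 genes whose change differed between the pairs became 782 without the dimmest genes by mean (8262 kept), 1045 with a trended and robust variance, 182 with the arrays of the groups compared alone, and 183 to 374 without 1 array; the cause was not tested. The 2439 genes called between Tgif1 OE and Tgif2 OE became 1236 after quantile normalisation, 3847 with each probe set on its own, 407 with the random block, 4119 with the pair as a fixed block, and 0 by limma with pair means, where 1717 genes had an unadjusted p under 0.05; leaving out 1 array gave 1729 to 2121. With the replicate number as a block, the counts were 3377 for BirA control, 3423 for Tgif2 OE and 151 for the difference between the pairs, the last a setting chosen after seeing the data; of the genes named, Tle3 lost its call and Cdx2, Ezh2, Fos, Klf4, Klf5, Mixl1, Myh9, Nr5a2, Sox3, Sqle and Uhrf1 gained one; no other call among them changed. Of 284 genes named, 215 were called and 214 of these kept their sign in every alternative, while Tle3 was at 0.0016 in replicates 1 and 2 alone. The alternatives use the arrays on which the genes were called, so the kept signs are not independent of the calls. Some genes not called over all arrays were called with the opposite sign in 1 pair alone. They included Anxa2 (-0.65 in replicates 1 and 2) and, in replicates 3 and 4, Dnmt3l (0.28), Sfmbt2 (0.61), Twist1 (0.36) and Uty (0.29). Others, such as Calb2, Ica1, Oas1a and Mdm2, also had opposite signs in the pairs, as given above. With the random block 17 of the 215 were no longer called, with pair means 179, and 10 when 1 array or another was left out. Of 164 other probe sets of 99 called genes, 149 had the same sign, 95 of them called, and of 15 with the opposite sign 0 were called. Dim probe sets near the array background understate a change, and 4 arrays a group limit the precision.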
